A study of Homo sapiens with 8 samples.

Results

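The genes described here are 54 genes of mitosis and the G2 phase, taken by symbol from a fixed list, out of 55679 gene identifiers in a table of RNA sequencing counts. Of these, 2 carry older names in that table, FAM64A for PIMREG and HN1 for JPT1. Breast cancer lines of the triple-negative class, which lack the estrogen and progesterone receptors and an excess of HER2, were grown with or without Acetalax (oxyphenisatin acetate). MDAMB468 and BT549 cells were each used as parental cells and as a CE (chronic exposure) derivative, which came from growth in rising Acetalax, up to 40 μM, followed by 2 weeks without the drug. Each of these 4 backgrounds gave 1 control library and 1 library after 6 hours in 1 μM Acetalax, 8 libraries in all, and no genotype was altered by design. Every line has 1 CE derivative, so that what is particular to CE cells and what is particular to that derivative cannot be told apart.

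Cells that have copied their DNA pass through G2, and cyclin B bound to the kinase CDK1 then drives them into mitosis. Kinetochores tie chromosomes to the spindle, a checkpoint holds anaphase back until each is attached, and the anaphase-promoting complex (APC/C) with CDC20 marks cyclin B for destruction. The genes for these proteins are transcribed late in the cycle, under a repressor complex named DREAM in resting cells and under MYB-MuvB (MMB) and FOXM1 in dividing cells, and their transcripts are a common measure of how many cells of a culture are in G2 or mitosis.

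Counts on genes were 42261122 to 54241728 per library. The line labels fitted the marker genes: EPCAM was 168 to 180 FPKM (counts per kilobase of merged exons, divided by the library total) in the MDAMB468 libraries and at most 0.0779 FPKM in those of BT549, while VIM was at most 1.73 FPKM in MDAMB468 and 167 to 273 FPKM in BT549. CDH1, KRT8 and KRT18 were higher in every MDAMB468 than in every BT549 library, EGFR was 206 to 657 FPKM against 15.7 to 27.6 FPKM, and CDH2 was listed at 0 in MDAMB468. ESR1 was at most 0.375 FPKM and PGR at most 0.0427 FPKM throughout, and ERBB2 was 3.99 to 9.22 FPKM. Values are compared as a score, log2(FPKM + 1) in the treated library minus that in the control of the same background, a scale that understates changes of low genes. With 1 library per condition a score has no replicate check. Counting error alone gave a 95% half-width of 0.02 to 0.14 on the log2 scale over the 54 genes. The scale shrinks the half-width of low genes too, so that the 0.0908 to 0.1229 of NUSAP1 understate its error. NUSAP1, a spindle protein, had only 8 to 38 counts per library, and 86.8% of its exon bases are shared on the same strand with other annotated genes, so that its values are uncertain.

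The promoters of these genes share sequence that their choice by name did not use. RefSeq windows of 300 bases (250 before to 50 after the transcription start, build GRCh38.p14) matched 45 of the 54 genes; AURKA, TPX2, BIRC5, TTK, FAM64A, ANP32E, HMGB2, UBE2C and CDCA2 were not matched. The cell cycle homology region (CHR), searched as TTTGAA or TTCGAA on both strands, was found in 33 of the 45 windows (73.3%), against 16.7% of all 27058 windows of the same length. CCAAT, the box read by NF-Y, was found on either strand in 32 (71.1%, against 35.7% of all windows), and 2 or more CCAAT matches in 24 (53.3%, against 11.3%). Both motifs stood in 28 windows (62.2%, against 6.6%), and in 2 of these windows a CHR and a CCAAT match overlapped. The windows printed here belong to genes on which the results turn: HMMR, CDC20 and CCNB2, which were lower with Acetalax in every background, CKS2, which went opposite ways in the lines, and RANGAP1, which was higher in every background. Capitals mark the CHR and CCAAT matches, and all are written 5′ to 3′ along the gene.
HMMR: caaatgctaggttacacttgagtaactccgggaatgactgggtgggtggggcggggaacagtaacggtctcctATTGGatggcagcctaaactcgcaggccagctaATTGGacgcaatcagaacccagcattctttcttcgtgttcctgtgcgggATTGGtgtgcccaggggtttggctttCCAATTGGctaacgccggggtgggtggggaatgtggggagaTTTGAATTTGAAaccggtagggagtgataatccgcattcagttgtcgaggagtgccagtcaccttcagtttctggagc
CDC20: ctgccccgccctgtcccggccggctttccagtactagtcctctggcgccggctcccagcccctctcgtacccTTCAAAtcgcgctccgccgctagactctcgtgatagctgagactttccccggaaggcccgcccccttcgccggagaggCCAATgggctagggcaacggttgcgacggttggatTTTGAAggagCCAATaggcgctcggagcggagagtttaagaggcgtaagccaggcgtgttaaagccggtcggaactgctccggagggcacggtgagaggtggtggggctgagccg
CCNB2: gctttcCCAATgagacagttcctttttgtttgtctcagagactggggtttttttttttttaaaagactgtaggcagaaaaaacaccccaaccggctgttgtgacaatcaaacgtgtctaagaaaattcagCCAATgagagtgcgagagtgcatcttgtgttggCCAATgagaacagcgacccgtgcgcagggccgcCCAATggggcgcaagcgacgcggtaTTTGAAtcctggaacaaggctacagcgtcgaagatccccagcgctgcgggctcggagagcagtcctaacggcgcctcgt
CKS2: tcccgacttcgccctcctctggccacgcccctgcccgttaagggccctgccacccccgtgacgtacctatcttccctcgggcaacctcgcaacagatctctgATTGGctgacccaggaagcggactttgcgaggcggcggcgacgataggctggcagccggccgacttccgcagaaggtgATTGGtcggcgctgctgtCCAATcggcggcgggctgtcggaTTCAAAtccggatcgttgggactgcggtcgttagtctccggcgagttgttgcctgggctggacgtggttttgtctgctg
RANGAP1: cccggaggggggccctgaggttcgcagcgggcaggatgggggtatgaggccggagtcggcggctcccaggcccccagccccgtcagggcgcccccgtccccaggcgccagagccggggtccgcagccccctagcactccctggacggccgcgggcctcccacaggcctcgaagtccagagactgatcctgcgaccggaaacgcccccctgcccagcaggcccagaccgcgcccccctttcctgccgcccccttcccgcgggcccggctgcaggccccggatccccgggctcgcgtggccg
These windows lie at chr5:163460382-163460681 (plus strand), chr1:43358731-43359030 (plus), chr15:59104896-59105195 (plus), chr9:89310945-89311244 (plus) and chr22:41302320-41302619 (minus). The HMMR window holds 2 CHR and 5 CCAAT matches, the CDC20 window 2 and 2, the CCNB2 window 1 and 4 and the CKS2 window 1 and 3, while that of RANGAP1 holds neither motif. The score after Acetalax, treated minus control on the log2 scale, did not follow the motifs in 1 direction. Its median for the 28 genes with both motifs and for the other 17 was -0.52 and -0.46 in MDAMB468 parental, -0.16 and -0.25 in MDAMB468-CE, -0.10 and -0.05 in BT549 parental and -0.53 and -0.48 in BT549-CE cells. In BT549-CE cells the 33 genes with a CHR had a median of -0.47 and the 12 without -0.63. There the 24 with 2 or more CCAAT matches had -0.44 and the other 21 -0.59. Each gene was read from a single window and only exact matches were counted, so that motifs near another start site were missed. The genes counted as without a motif, such as CDC25C with neither in its window, may thus hold it elsewhere.

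After 6 hours of Acetalax most of the 54 genes were at lower levels in MDAMB468 parental and BT549-CE cells, fewer in MDAMB468-CE cells, and in BT549 parental cells they stayed near the bulk of the transcriptome. Their summed share of all counts was 0.927% without and 0.655% with Acetalax in MDAMB468 parental cells (a change of -29.4%), 0.921% and 0.797% in MDAMB468-CE (a change of -13.5%), 1.26% and 1.21% in BT549 parental (a change of -3.6%) and 0.886% and 0.656% in BT549-CE (a change of -26.0%). In cultures measured in bulk, fewer cells in G2 or mitosis and less of these transcripts per cell cannot be told apart. The share of counts from mitochondrial genes was lower with Acetalax in each background, in the same order, 10.0% and 7.89%, 9.98% and 8.87%, 7.32% and 7.29%, and 5.08% and 4.0%, and its part in the result was not tested.

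In MDAMB468 parental cells 52 of the 54 genes scored below 0, where 58.8% of 11133 genes did that averaged 5 CPM or more (counts scaled to equal library totals). A score of -0.5 or less, the size taken here as a call where there are no replicates, was reached by 26 of them (8.79% of all genes) and a score of 0.5 by 0 (8.52% of all genes), and the median score was -0.48 against -0.07 over all genes. In MDAMB468-CE cells 44 scored below 0 (55.6% of all genes), 8 reached -0.5 (4.16% of all genes) and 0 reached 0.5 (4.72% of all genes), and the median was -0.18 against -0.03. In BT549 parental cells 35 scored below 0 (63.4% of all genes), only PSRC1 reached -0.5 (5.94% of all genes), only CKS2 reached 0.5 (3.26% of all genes), and the median was -0.08 against -0.07. In BT549-CE cells 49 scored below 0 (63.6% of all genes), 27 reached -0.5 (18.0% of all genes), CKS2 and GAS2L3 reached 0.5 (8.13% of all genes), and the median was -0.50 against -0.12. Scaling by TMM, a trimmed mean of ratios between libraries, moved the median of all genes in BT549-CE from -0.12 to 0.01. With it 39 of the 54 genes scored below 0 there (48.1% of all genes), 17 reached -0.5 (11.3% of all genes), and their median of -0.30 lay 0.31 below that of all genes. In MDAMB468-CE cells with TMM 39 scored below 0 (42.8% of all genes), only 3 reached -0.5 (2.87% of all genes), and the median was -0.10 against 0.04. The score understates changes of low genes, so that the shares of all genes depend on the scale. With CPM in place of FPKM, 29, 8, 1 and 27 of the 54 genes reached -0.5, in the order used above. The shares of all genes were then 13.3%, 7.14%, 11.5% and 25.9%.

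**Figure D1:**
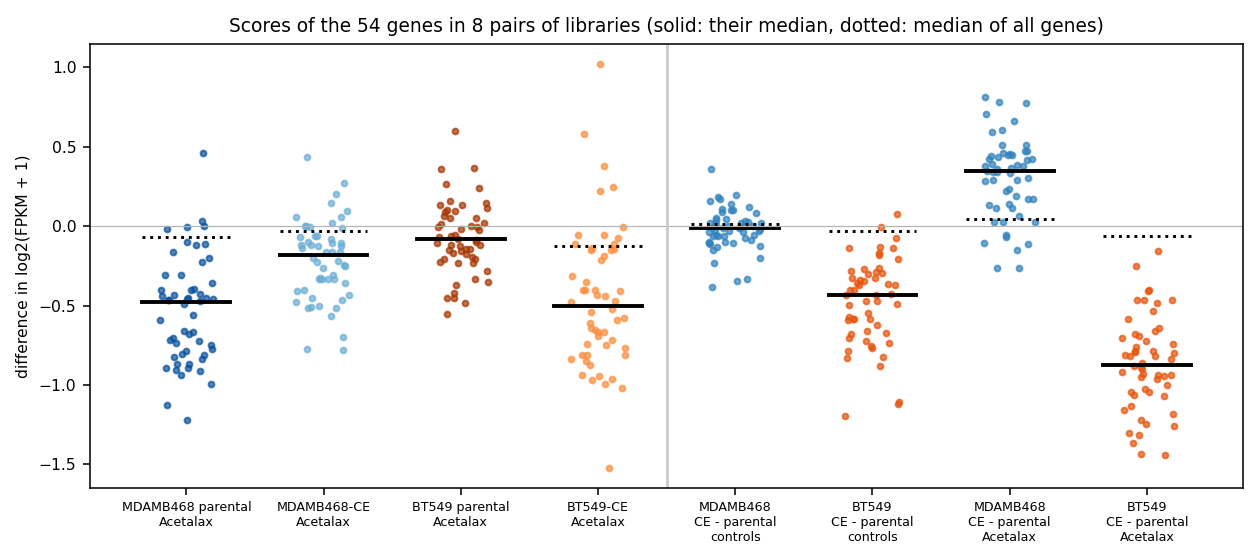
Difference in log2(FPKM + 1) of each of the 54 genes (points) in 8 pairs of libraries: 4 of Acetalax minus control and, to the right of the line, 4 of CE minus parental cells. Solid bars are medians of the 54 genes (-0.48, -0.18, -0.08 and -0.50 for Acetalax) and dotted bars medians of all genes with at least 5 CPM, and the points have no replicate error.

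Over the 4 backgrounds, 31 of the 54 genes (57.4%) scored below 0 in every pair, against 30.6% of all genes, and 1 (RANGAP1) scored above 0 in every pair, against 12.7%. With TMM scaling 24 (44.4%) were below 0 in every pair, against 21.0% of all genes, and 4 (CKS1B, HJURP, RANGAP1 and TUBB4B) above 0, against 19.2%. With the backgrounds as replicates (edgeR quasi-likelihood test, Benjamini-Hochberg adjustment over 19693 genes) 3 of the 54 genes (5.56%) passed an adjusted p of 0.05, where 5.0% of all genes did, so that the share called was near the background. The 4 backgrounds come from 2 lines, and scores were more alike within a line than between lines. They are therefore not 4 independent replicates, which limits every p-value over the 4 backgrounds given here. HMMR and ANP32E fell (2.27% of all genes fell), and RANGAP1 rose (2.72% of all genes rose). At an unadjusted p under 0.05, 27 (50.0%) were lower and 1 (1.85%) higher, against 15.5% and 12.5% of all genes. None of the 3 calls was kept when the MDAMB468 parental, the MDAMB468-CE or the BT549-CE pair was left out (adjusted p 0.06 to 0.191), and without the MDAMB468 parental pair no gene of the table was called. Without the BT549 parental pair HMMR kept its call. DESeq2 called 18 of the 54 genes over the 4 backgrounds, where it called 17.3% of all genes.

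HMMR (chr5:162887209-162918947, hg19, plus strand) encodes a protein that binds hyaluronan and organises spindle microtubules. HMMR was at 27.0 FPKM without and 11.0 FPKM with Acetalax in MDAMB468 parental cells, 30.3 and 17.3 FPKM in MDAMB468-CE, 30.5 and 23.6 FPKM in BT549 parental and 24.2 and 11.6 FPKM in BT549-CE. The treated library was the lower of each pair, and in edgeR HMMR fell by 0.79 on the log2 scale (SE 0.15, adjusted p = 0.0400, lower in 4 of 4 pairs). ANP32E (chr1:150190717-150208504, minus strand), a chaperone that removes the histone variant H2A.Z, fell by 0.51 (SE 0.10, adjusted p = 0.0410 in edgeR, lower in 4 of 4 pairs). The levels of ANP32E without and with Acetalax were 62.2 and 41.1 FPKM in MDAMB468 parental, 49.3 and 34.1 in MDAMB468-CE, 56.4 and 43.3 in BT549 parental and 46.2 and 24.8 in BT549-CE cells. All 4 treated libraries lay below all 4 controls, as they did for HMMR. RANGAP1 (chr22:41641615-41682255, minus strand), the activator of the GTPase Ran, which acts in nuclear transport and at kinetochores, rose by 0.44 (SE 0.09, adjusted p = 0.0434 in edgeR, higher in 4 of 4 pairs). From control to treated library, RANGAP1 went from 44.8 to 61.9 FPKM in MDAMB468 parental, 46.3 to 63.1 in MDAMB468-CE, 72.1 to 78.0 in BT549 parental and 30.9 to 40.5 in BT549-CE cells. Its treated library was the higher of each pair, and the smallest difference was in BT549 parental cells.

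**Figure D2:**
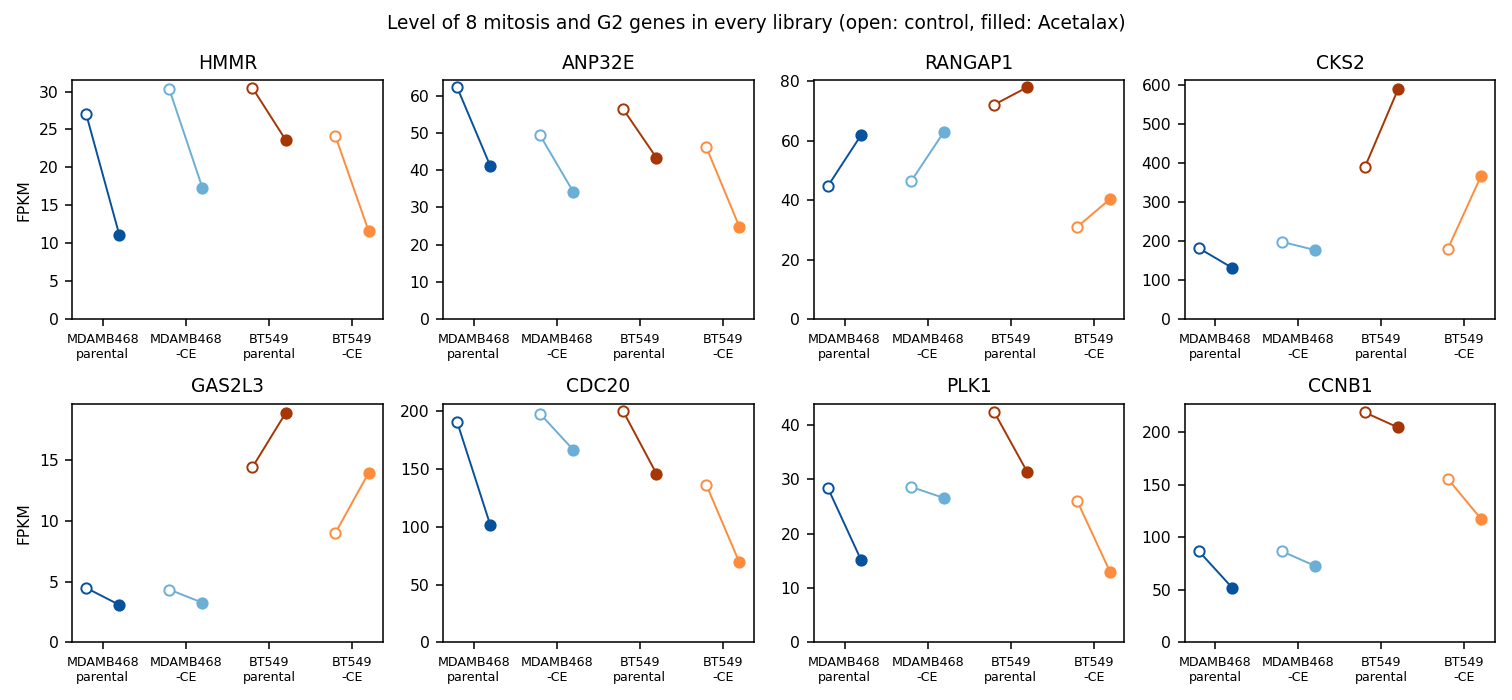
Level in FPKM (vertical axes from 0) of 8 genes in every library, with the control (open) and Acetalax (filled) libraries of a background joined by a line and 1 library per point. HMMR and ANP32E are lower and RANGAP1 higher with Acetalax in all 4 backgrounds, whereas CKS2 and GAS2L3 are lower in MDAMB468 and higher in BT549 backgrounds.

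Among the cyclins and their partners, the 6 genes had a median score of -0.59, -0.21, 0.12 and -0.27 in MDAMB468 parental, MDAMB468-CE, BT549 parental and BT549-CE cells. For CDC25C, MDAMB468 parental cells gave 6.36 FPKM in the control and 2.37 FPKM in the Acetalax library, MDAMB468-CE cells 6.54 and 3.39, BT549 parental cells 10.7 and 11.6, and BT549-CE cells 8.72 and 4.04. CDC25C is the phosphatase that activates CDK1 at mitotic entry, and it was lower with Acetalax in every background but BT549 parental, where its score was 0.10. In MDAMB468 cells CCNB2 measured 33.7 FPKM (control) and 17.1 FPKM (Acetalax) as parental and 38.8 and 27.6 FPKM as CE cells, and in BT549 cells 27.1 and 23.1 FPKM as parental and 23.8 and 13.6 FPKM as CE cells. Control and Acetalax levels of CCNB1 were 86.8 and 52.2 FPKM (MDAMB468 parental), 86.7 and 72.8 FPKM (MDAMB468-CE), 219 and 204 FPKM (BT549 parental) and 156 and 117 FPKM (BT549-CE). Both B-type cyclins, the activating subunits of CDK1, were lower with Acetalax in each background. Their scores were nearest 0 in BT549 parental cells (-0.22 for CCNB2 and -0.10 for CCNB1). The median of all genes there was -0.07, so that CCNB1 lay close to the bulk. CDK1 was at 49.9 FPKM without and 37.6 FPKM with Acetalax in MDAMB468 parental cells, 46.3 and 42.5 FPKM in MDAMB468-CE, 44.8 and 49.2 FPKM in BT549 parental and 26.7 and 24.1 FPKM in BT549-CE. CDK1 itself scored -0.40, -0.12, 0.13 and -0.14, a narrower range than its cyclins, and the score in BT549-CE turned to 0.07 with TMM scaling. The levels of CKS1B without and with Acetalax were 31.7 and 32.4 FPKM in MDAMB468 parental, 32.2 and 30.8 in MDAMB468-CE, 56.9 and 67.4 in BT549 parental and 37.6 and 44.7 in BT549-CE cells. CKS1B, a small subunit that docks CDK substrates, differed by 0.06 or less in MDAMB468, with a sign in MDAMB468-CE that turned with TMM scaling, and scored 0.24 in both BT549 backgrounds.

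CKS2, the paralog of CKS1B, went opposite ways in the lines. From control to treated library, CKS2 went from 182 to 132 FPKM in MDAMB468 parental, 198 to 177 in MDAMB468-CE, 389 to 589 in BT549 parental and 180 to 367 in BT549-CE cells. Its treated library was below the control in both MDAMB468 backgrounds and above it in both BT549 backgrounds. A test of the difference of the Acetalax response between the lines, with parental and CE cells as replicates, gave 1.18 higher in BT549 on the log2 scale (SE 0.21, adjusted p = 0.0426 in edgeR). GAS2L3, a linker of actin and microtubules at the midzone, which is named because it is the other gene called, differed by 1.04 in the same direction (SE 0.18, adjusted p = 0.0424 in edgeR). For GAS2L3, MDAMB468 parental cells gave 4.49 FPKM in the control and 3.09 FPKM in the Acetalax library, MDAMB468-CE cells 4.35 and 3.27, BT549 parental cells 14.4 and 18.9, and BT549-CE cells 9.01 and 13.9. These were 2 of the 54 genes (3.7%), where 1.78% of all genes were called and 0.533% were called higher and 1.25% lower in BT549. At an unadjusted p under 0.05, 6 of the 54 genes were higher in BT549 (6.9% of all genes) and 0 lower (10.4% of all genes). Without the MDAMB468 parental pair neither was called (adjusted p 0.165 for CKS2 and 0.159 for GAS2L3), and GAS2L3 was not called without the MDAMB468-CE pair (0.0832).

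The 6 mitotic kinases had medians of -0.82, -0.27, -0.11 and -0.64 in the same order of backgrounds, and all 6 scored below 0 in both MDAMB468 backgrounds and in BT549-CE. In MDAMB468 cells PLK1 measured 28.4 FPKM (control) and 15.1 FPKM (Acetalax) as parental and 28.6 and 26.6 FPKM as CE cells, and in BT549 cells 42.5 and 31.4 FPKM as parental and 26.1 and 12.9 FPKM as CE cells. PLK1, which acts in mitotic entry and centrosome maturation, scored -0.87 in MDAMB468 parental and -0.96 in BT549-CE but -0.10 in MDAMB468-CE cells. Control and Acetalax levels of AURKA were 48.9 and 28.2 FPKM (MDAMB468 parental), 52.8 and 49.2 FPKM (MDAMB468-CE), 95.3 and 96.7 FPKM (BT549 parental) and 63.4 and 46.4 FPKM (BT549-CE). AURKA, the centrosomal Aurora kinase, had a like order in MDAMB468 (-0.77 and -0.10) and scored 0.02 in BT549 parental cells. TTK was at 32.6 FPKM without and 20.2 FPKM with Acetalax in MDAMB468 parental cells, 25.5 and 18.6 FPKM in MDAMB468-CE, 38.3 and 33.9 FPKM in BT549 parental and 22.6 and 13.6 FPKM in BT549-CE. TTK (also called MPS1), a spindle checkpoint kinase, scored -0.43 or lower in every background but BT549 parental (-0.17). NEK2, a centrosome kinase, and BUB1, a checkpoint kinase, scored -0.91 and -0.89 in MDAMB468 parental cells and -0.75 and -0.58 in BT549-CE, while AURKB, the kinase of the chromosomal passenger complex, ranged from -0.49 to 0.16.

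The 5 genes of the APC/C and mitotic exit had medians of -0.46, -0.08, -0.05 and -0.59. The levels of CDC20 without and with Acetalax were 191 and 101 FPKM in MDAMB468 parental, 198 and 166 in MDAMB468-CE, 200 and 146 in BT549 parental and 136 and 69.2 in BT549-CE cells. CDC20, the activator through which the spindle checkpoint acts on the APC/C, was lower with Acetalax in every background, and its adjusted p over the 4 was 0.0535 in edgeR. UBE2C, the ubiquitin-conjugating enzyme of the same complex, did not share this order and scored -0.12, 0.06, 0.26 and 0.22. From control to treated library, FAM64A went from 14.2 to 10.1 FPKM in MDAMB468 parental, 13.1 to 14.1 in MDAMB468-CE, 37.6 to 26.6 in BT549 parental and 32.5 to 19.0 in BT549-CE cells. FAM64A, a regulator of the metaphase to anaphase step, was among the lowest scores in BT549 parental cells (-0.49). CDCA3, a trigger of mitotic entry, and G2E3, a ubiquitin ligase, scored below 0 in all 4 backgrounds, from -0.68 to -0.003 for CDCA3 and from -0.16 to -0.05 for G2E3, but with TMM scaling CDCA3 was at 0.03 in BT549 parental and G2E3 at 0.02 in BT549-CE cells.

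At the kinetochore and centromere the 6 genes had medians of -0.77, -0.48, -0.07 and -0.52. For CENPF, MDAMB468 parental cells gave 42.5 FPKM in the control and 20.9 FPKM in the Acetalax library, MDAMB468-CE cells 42.3 and 25.6, BT549 parental cells 35.6 and 33.0, and BT549-CE cells 32.4 and 18.0. CENPF, a large protein of the outer kinetochore, scored -0.99 and -0.70 in the MDAMB468 backgrounds and -0.11 and -0.81 in those of BT549. In MDAMB468 cells CENPE measured 12.2 FPKM (control) and 6.11 FPKM (Acetalax) as parental and 12.0 and 8.48 FPKM as CE cells, and in BT549 cells 11.9 and 10.0 FPKM as parental and 8.79 and 5.27 FPKM as CE cells. Control and Acetalax levels of NUF2 were 13.8 and 8.09 FPKM (MDAMB468 parental), 13.0 and 8.86 FPKM (MDAMB468-CE), 41.1 and 35.5 FPKM (BT549 parental) and 22.8 and 17.0 FPKM (BT549-CE). CENPE, the kinetochore motor, and NUF2, which with NDC80 forms the microtubule-binding complex, were lower with Acetalax in all 4 backgrounds. NDC80 scored -0.84, -0.57, -0.03 (0.01 with TMM scaling) and -0.67. The centromeric histone CENPA and its chaperone HJURP lay apart from these, at -0.40 to 0.15 and -0.11 to 0.27.

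Of the 16 genes of the spindle and its motors, which had medians of -0.52, -0.15, -0.13 and -0.50, 16, 13, 12 and 15 scored below 0. PSRC1 was at 27.9 FPKM without and 16.2 FPKM with Acetalax in MDAMB468 parental cells, 31.9 and 29.3 FPKM in MDAMB468-CE, 24.9 and 16.6 FPKM in BT549 parental and 17.7 and 5.51 FPKM in BT549-CE. PSRC1, a microtubule-associated protein, had the lowest score of the 54 genes in both BT549 backgrounds, -0.55 in parental and -1.52 in CE cells, and scored -0.12 in MDAMB468-CE. The levels of KIF11 without and with Acetalax were 19.9 and 10.9 FPKM in MDAMB468 parental, 18.2 and 14.2 in MDAMB468-CE, 36.0 and 28.4 in BT549 parental and 25.2 and 11.9 in BT549-CE cells. KIF11 is the kinesin that pushes spindle poles apart, and it was lower with Acetalax in all 4 backgrounds (adjusted p = 0.0546 over the 4 in edgeR). From control to treated library, TUBB4B went from 200 to 200 FPKM in MDAMB468 parental, 258 to 286 in MDAMB468-CE, 439 to 470 in BT549 parental and 254 to 253 in BT549-CE cells. TUBB4B, a beta-tubulin, had a score within 0.15 of 0 in every background, and of 0.08, 0.24, 0.13 and 0.21 with TMM scaling. NUSAP1, with the few counts given above, had scores of -0.10, 0.02, 0.14 and -0.11, and no direction is read from them. For NUSAP1, MDAMB468 parental cells gave 0.171 FPKM in the control and 0.0913 FPKM in the Acetalax library, MDAMB468-CE cells 0.0942 and 0.111, BT549 parental cells 0.131 and 0.242, and BT549-CE cells 0.128 and 0.0438. The spindle genes not yet named had scores between -0.87 (DLGAP5, MDAMB468 parental) and 0.06 (CKAP2L, MDAMB468-CE).

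Of the chromosomal passenger and cytokinesis genes, BIRC5, CDCA8, ECT2 and ANLN, the medians were -0.43, -0.15, 0.05 and -0.17, and ANLN, the scaffold of the cleavage furrow, scored within 0.19 of 0 throughout, with signs in both CE backgrounds that turned with TMM scaling. The 10 genes of chromosome structure and the nuclear envelope had medians of -0.41, -0.30, -0.14 and -0.76. In MDAMB468 cells TOP2A measured 68.1 FPKM (control) and 41.1 FPKM (Acetalax) as parental and 67.3 and 52.3 FPKM as CE cells, and in BT549 cells 80.2 and 76.4 FPKM as parental and 65.3 and 39.3 FPKM as CE cells. Control and Acetalax levels of MKI67 were 41.9 and 30.0 FPKM (MDAMB468 parental), 41.9 and 33.1 FPKM (MDAMB468-CE), 56.5 and 50.7 FPKM (BT549 parental) and 42.5 and 23.8 FPKM (BT549-CE). TOP2A, the topoisomerase that untangles sister chromatids, and MKI67, the proliferation marker that coats mitotic chromosomes, were lower with Acetalax in each background. They fell least in BT549 parental cells (scores of -0.07 and -0.15). The median of all genes there was -0.07, so that TOP2A was not lower than the bulk. LBR was at 22.6 FPKM without and 18.1 FPKM with Acetalax in MDAMB468 parental cells, 19.6 and 16.2 FPKM in MDAMB468-CE, 19.6 and 14.0 FPKM in BT549 parental and 15.0 and 7.86 FPKM in BT549-CE. LBR, the lamin B receptor of the inner nuclear membrane, differed from most in that its score in BT549 parental cells (-0.46) lay below both MDAMB468 scores (-0.31 and -0.26). The levels of NCAPD2 without and with Acetalax were 34.7 and 19.3 FPKM in MDAMB468 parental, 35.6 and 24.7 in MDAMB468-CE, 47.6 and 41.5 in BT549 parental and 45.3 and 23.1 in BT549-CE cells. NCAPD2, a subunit of condensin, had an adjusted p of 0.0544 over the 4 backgrounds in edgeR. From control to treated library, HMGB2 went from 123 to 89.3 FPKM in MDAMB468 parental, 93.8 to 74.3 in MDAMB468-CE, 90.5 to 116 in BT549 parental and 73.8 to 71.0 in BT549-CE cells. HMGB2, a chromatin protein that bends DNA, scored 0.36 in BT549 parental cells and below 0 in the other 3 backgrounds, of which BT549-CE (-0.06) turned to 0.16 with TMM scaling. For HN1, MDAMB468 parental cells gave 51.9 FPKM in the control and 51.8 FPKM in the Acetalax library, MDAMB468-CE cells 55.0 and 63.6, BT549 parental cells 38.4 and 35.2, and BT549-CE cells 40.5 and 31.5. HN1, a microtubule-associated protein outside these classes, had scores from -0.35 to 0.21.

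**Figure D3:**
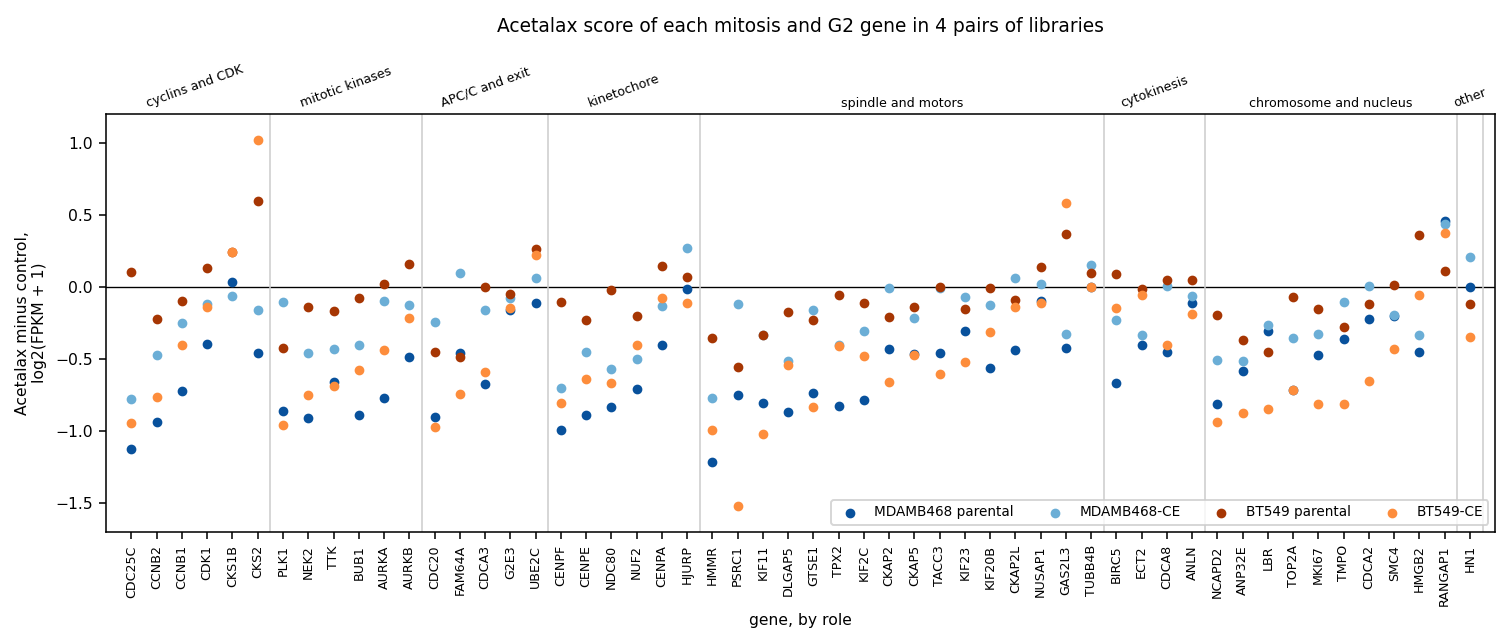
Acetalax minus control in log2(FPKM + 1) for each of the 54 genes, grouped by role, in the 4 backgrounds (colours), with 1 pair of libraries per point and no replicate error. Dark blue points (MDAMB468 parental) and light orange points (BT549-CE) are mostly the lowest of a gene, RANGAP1 alone is above 0 in all 4 (CKS1B, HJURP and TUBB4B are too with TMM scaling), and CKS2 reaches 1.02 in BT549-CE.

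Scores of the 53 genes with at least 5 CPM were alike within a line and less so between lines. Pearson's r across genes was 0.816 (Spearman's rho 0.757) between MDAMB468 parental and CE cells and 0.859 (rho 0.812) between BT549 parental and CE cells, pairs that share no library. Between the lines r was 0.197 to 0.595. Over all 11133 genes the within-line values were 0.779 and 0.804, near those of the 53 genes, and genes are not independent replicates.

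No gene of the table was called for Acetalax in parental cells alone or in CE cells alone, with the lines as 2 replicates, or for a difference of the response between CE and parental cells (0.0% of all genes in each, edgeR). At an unadjusted p under 0.05 parental cells gave 7 of the 54 genes lower (4.0% of all genes) and 1 higher (4.68%). CE cells gave 13 lower (6.02% of all genes) and 1 higher (5.72%). The difference between CE and parental cells gave 0 of the 54 (91 of all 19693 genes). DESeq2 called 75 genes of the table in parental cells (0.532%) and 289 in CE cells (2.05%), and 0 of the 54 genes in either.

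BT549-CE cells had lower levels of these genes than BT549 parental cells, whereas in MDAMB468 the CE and parental controls were close and the treated CE cells had the higher levels. In the control libraries BT549-CE cells were lower for 53 of the 54 genes (53.7% of all genes were lower), with a median of -0.43 against -0.03 over all genes. Of the 54, 22 were at -0.5 or less (11.5% of all genes), or 23 with CPM in place of FPKM (15.3% of all genes). MDAMB468-CE cells had 32 lower (44.7% of all genes), 0 at -0.5 or less (2.69% of all genes) and a median of -0.01 against 0.02, and with TMM scaling 42 were lower (57.5% of all genes). The summed share of counts differed by -29.5% in BT549-CE and by -0.706% in MDAMB468-CE. The mitochondrial share was 7.32% in BT549 parental and 5.08% in BT549-CE controls, and its part in the result was not tested. In the treated libraries the medians were -0.87 in BT549, where all 54 genes were lower in CE cells (57.7% of all genes) and 46 reached -0.5 (14.4% of all genes), and 0.35 in MDAMB468, where 7 were lower (41.9% of all genes) and 9 reached 0.5 (5.55% of all genes).

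The difference between the lines was tested in a fit with a CE term for each line and the control and treated pairs as replicates, a test that was added after these scores were seen. It called 22 of the 54 genes (40.7%), all lower in BT549, where 12.2% of all genes were called and 4.91% were called lower (edgeR, adjusted over 19693 genes). At an unadjusted p under 0.05 the counts were 44 lower (81.5%, against 12.8% of all genes) and 0 higher (14.3% of all genes). The control and the treated cells of a background are not separate cultures of the same condition. The spread in this fit is therefore how far the CE effect differed between the control and the treated pair of a line. Without the MDAMB468 Acetalax pair 2 of the 54 genes were called, below the share of all genes (6.28%), and without the BT549 control pair 36 were (14.1% of all genes).

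TUBB4B was the gene with the smallest p in that test. Its level was 200 FPKM in MDAMB468 parental and 258 FPKM in MDAMB468-CE controls, but 439 FPKM in BT549 parental and 254 FPKM in BT549-CE controls, and BT549 was lower than MDAMB468 in the CE effect by a log2 difference of -1.15 (SE 0.12, adjusted p = 0.000877 in edgeR). ECT2, the exchange factor that starts cytokinesis, was 32.5 and 34.9 FPKM in MDAMB468 and 47.5 and 21.3 FPKM in BT549 (parental, then CE controls), a log2 difference of -1.18 (SE 0.14, adjusted p = 0.00181 in edgeR). RANGAP1 was 44.8 and 46.3 FPKM in MDAMB468 and 72.1 and 30.9 FPKM in BT549, a log2 difference of -0.99 (SE 0.15, adjusted p = 0.00565 in edgeR). TUBB4B and ECT2 were called whichever pair was left out, and RANGAP1 was not called when the MDAMB468 control pair (adjusted p = 0.0618 in edgeR) or the MDAMB468 Acetalax pair (adjusted p = 0.0593 in edgeR) was left out. CDK1 (-0.79), CCNB1 (-0.75), PLK1 (-1.27), AURKA (-1.15) and CDC20 (-1.07) were called too (adjusted p 0.0221 to 0.0396 in edgeR), and each of these 5 lost the call without the MDAMB468 Acetalax pair.

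With a common CE effect over both lines none of the 54 genes was called, where 0.117% of all genes were (0.0609% higher and 0.0559% lower, edgeR). At an unadjusted p under 0.05, 6 were lower (6.75% of all genes) and 0 higher (8.05% of all genes), and DESeq2 called 2 (5.17% of all genes). In the controls alone none was called either (0.0% of all genes). At an unadjusted p under 0.05, 1 (1.85%) was lower there, near the 1.58% of all genes, and 0 higher (1.74% of all genes). The genes lower in CE controls of both lines by most were TTK (-0.34 in MDAMB468 and -0.73 in BT549), HMGB2 (-0.38 and -0.29) and ANP32E (-0.33 and -0.28). HN1 (0.08 and 0.07) had a score above 0 in both. No other gene did, and NCAPD2 (0.04 and -0.07) and NUSAP1 (-0.10 and -0.004, from few counts) were next in order.

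**Figure D4:**
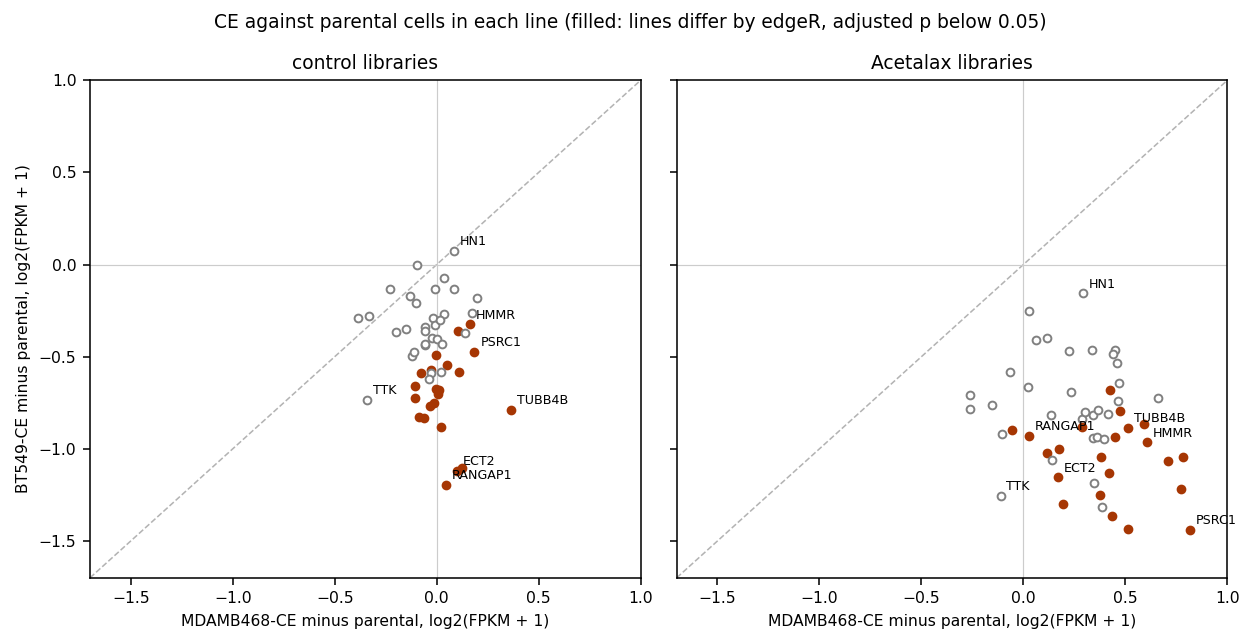
CE minus parental cells in log2(FPKM + 1), MDAMB468 on the horizontal and BT549 on the vertical axis, for each of the 54 genes in the control (left) and the Acetalax libraries (right). Most points lie below the dashed line of equal difference, and filled points are the 22 genes called for a difference between the lines.

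Other genes of the cell cycle were read from 3 lists. Of 83 further mitosis genes, the medians were -0.35, -0.17, -0.10 and -0.36 in the 4 Acetalax pairs, in the order used above. Of the 83, 68, 63, 50 and 66 scored below 0, where 58.8%, 55.6%, 63.4% and 63.6% of all genes did, so that the count in BT549 parental cells was below the share of all genes. In edgeR over the 4 backgrounds 82 were tested and 6 called (7.32%, against 5.0% of all genes), with 30 lower and 5 higher at an unadjusted p under 0.05 (15.5% and 12.5% of all genes). Lower were KIF20A, a cytokinesis kinesin (-0.85), NSL1 (-0.98) and CASC5 (-0.48), both of the outer kinetochore, CIT, a midbody kinase (-0.79), and ASPM, a spindle pole protein (-0.58), and PKMYT1, the membrane-bound inhibitor kinase of CDK1, was higher (0.46), and NSL1, CASC5, CIT and ASPM are named because they were called. By mean score the lowest were KIF20A, SPC24 and CDC25B and the highest PKMYT1, MIS12 and NCAPH2. In MDAMB468 cells KIF20A measured 70.5 FPKM (control) and 24.8 FPKM (Acetalax) as parental and 59.4 and 37.1 FPKM as CE cells, and in BT549 cells 74.5 and 58.1 FPKM as parental and 77.1 and 32.7 FPKM as CE cells. KIF20A was lower in the treated library of every background. None of the 6 calls was kept without the MDAMB468 parental pair, where no gene of the table was called. In the test of the CE effect between the lines 9 of the 82 were called (11.0%, near the 12.2% of all genes), all lower in BT549 (4.91% of all genes).

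Of the 41 measured genes of DNA replication and the G1-S step, the medians were 0.04, -0.06, 0.04 and -0.15, on either side of those of all genes. Over the 4 backgrounds 2 were called (4.88%, against 5.0% of all genes), both higher, namely CDC6, a loader of the replicative helicase (0.49), and FEN1, a flap nuclease (0.54), with 6 higher and 4 lower at an unadjusted p under 0.05 (12.5% and 15.5% of all genes). Control and Acetalax levels of FEN1 were 67.9 and 87.7 FPKM (MDAMB468 parental), 63.0 and 79.1 FPKM (MDAMB468-CE), 63.0 and 86.2 FPKM (BT549 parental) and 59.5 and 93.4 FPKM (BT549-CE). FEN1 was higher in the treated library of each background. The calls of CDC6 and FEN1 were lost without the MDAMB468 parental pair, where no gene of the table was called. ATAD2 stood with these genes as the highest by mean score, while PRIM1, the small primase subunit, DSCC1 and MCM2 were the lowest. In CE control cells 33 of the 41 scored below 0 in each line (44.7% of all genes in MDAMB468 and 53.7% in BT549), and in the test of the CE effect between the lines MCM6, a helicase subunit, was the only call (0.90 higher in BT549, where 12.2% of all genes were called).

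Regulators of such promoters were read as 13 genes of DREAM, MMB and FOXM1, of which 2 were called over the 4 backgrounds (15.4%, against 5.0% of all genes). RBL2 (also called p130), the pocket protein of DREAM, was lower (-0.63, SE 0.11, adjusted p = 0.0377 in edgeR), and E2F4, its DNA-binding partner, was higher (0.57, SE 0.12, adjusted p = 0.0424 in edgeR). RBL2 was at 11.3 FPKM without and 7.39 FPKM with Acetalax in MDAMB468 parental cells, 12.7 and 8.95 FPKM in MDAMB468-CE, 5.10 and 3.18 FPKM in BT549 parental and 7.70 and 3.63 FPKM in BT549-CE. The levels of E2F4 without and with Acetalax were 16.1 and 21.2 FPKM in MDAMB468 parental, 17.6 and 24.6 in MDAMB468-CE, 22.4 and 27.1 in BT549 parental and 20.1 and 34.2 in BT549-CE cells. RBL2 was lower and E2F4 higher with Acetalax in all 4 backgrounds. Neither call was kept without the MDAMB468 parental pair, where no gene of the table was called. From control to treated library, FOXM1 went from 21.6 to 16.4 FPKM in MDAMB468 parental, 19.9 to 16.8 in MDAMB468-CE, 59.0 to 58.5 in BT549 parental and 48.7 to 39.1 in BT549-CE cells. FOXM1, the activator of late cell cycle genes, scored -0.37, -0.23, -0.01 and -0.31 and was not called. TFDP2 was the remaining gene of the 3 lowest mean scores, and LIN52 and LIN54, subunits of the MuvB core, stood with E2F4 as the highest. MYBL2, the MYB of MMB, which is outside the rule for named genes and is given for its role, scored between -0.04 and 0.12.

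**Figure D5:**
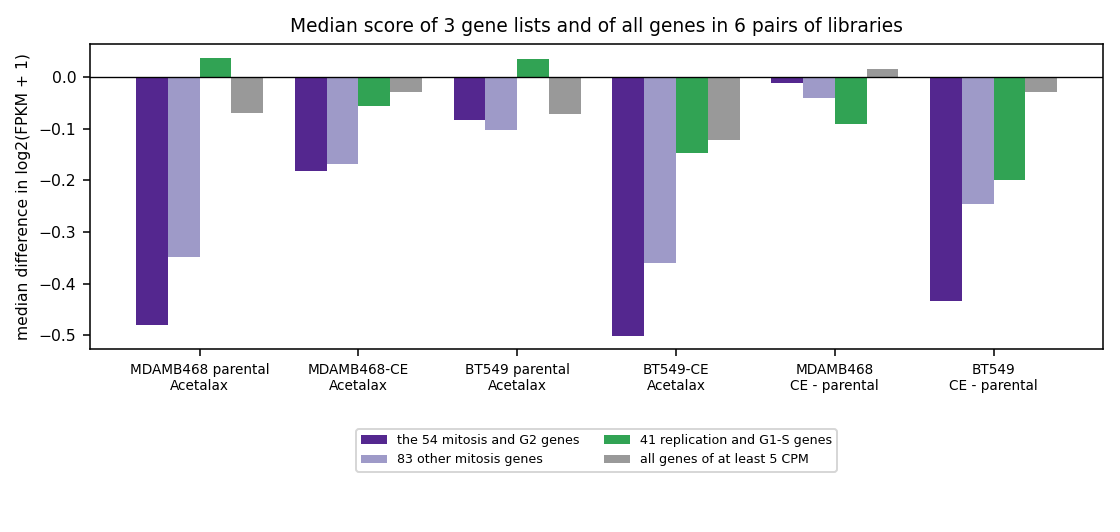
Median difference in log2(FPKM + 1) of the 54 genes, of 83 other mitosis genes, of 41 replication and G1-S genes and of all genes with at least 5 CPM in the 4 Acetalax pairs and the 2 CE minus parental pairs of control libraries. Bars start at 0 and have no error bars, since each pair is 1 library against 1. Both mitosis lists lie below all genes in the 4 Acetalax pairs on this scale, but only slightly in BT549 parental cells (-0.08 and -0.10 against -0.07). The 54 genes lie slightly above all genes there with CPM in place of FPKM (-0.088 against -0.095) or with a pseudocount of 0.1 (-0.089 against -0.1).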

How the data were processed

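Poly(A) RNA of 8 cultures was sequenced as pairs of 101 bases with a directional kit. Per the study's methods and the labels, reads were aligned to hg19 with STAR (2.7.11b in the submitters' processing notes) and counted per gene. The gene annotation and the strand column were not given in the sources used here. The values used are the deposited counts of reads per gene, which the authors left unnormalized, with no replicate pooled. Of 58154 rows, 2475 that repeated 1 of 1392 identifiers were removed (the first row of each was kept; 3 of these identifiers had rows with other counts), leaving 55679 genes, and 28 symbols that a spreadsheet had turned into dates were restored. CKS1B has 2 identifiers, and the one on chromosome 1 was used. FPKM was computed from the counts and merged exon lengths of GENCODE v44 lifted to GRCh37, and the score, log2(FPKM + 1) treated minus control, follows the study's methods. Its pseudocount of 1 understates changes of low genes.

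Groups came from the sample labels. A size of 0.5 was taken as a call where there is 1 library against 1, and all genes are those with a mean of at least 5 CPM. Tests were edgeR 4.0.16 quasi-likelihood fits on the counts (TMM, filterByExpr, Benjamini-Hochberg adjusted p under 0.05) in R 4.3.3. The fits had an intercept for each background or for each line and treatment, so that p-values measure the spread between these cultures, and nothing says that same-background libraries were separate experiments. Alternatives were DESeq2 1.42.0, other scalings (RLE), every gene with at least 1 count, CPM, a pseudocount of 0.1, no replicate block, and leaving out each pair. Counting error covers sampling of reads only. On simulated data with 200 changed genes the test recovered 87.9% for Acetalax (17997 genes) and 83.4% for CE against parental cells (18000 genes), at a change of 1 on the log2 scale. The simulated spread between libraries (dispersion) was set below the common dispersion fitted to these data. The fitted value was 0.0358 for Acetalax and 0.0745 for CE against parental cells. Recovery in the real data may thus be lower, most of all for CE. Over 4 pairs, the edgeR median log2 change of the 54 genes was -0.27 for Acetalax and -0.24 for CE against parental cells. Recovery at changes of that size was not tested. No libraries agreed within sampling noise (smallest chi-square per degree of freedom 44.4). The 54 genes, the lists and the roles were chosen with earlier results of these data known. Genes given with all 8 libraries were the 8 with the lowest highest score and the 4 with the highest lowest score over the Acetalax pairs, the 3 lowest and the 1 highest of each pair, the 3 with the largest common rise and the 3 with the largest common fall in CE controls (ranked by the score of the 2 lines that was nearer to the other direction, so that the first 3 include 2 that did not rise in both lines), and CDK1, CCNB1, PLK1, AURKA, CDC20, TOP2A and MKI67. Of the lists, the 3 lowest and the 3 highest by mean score were named.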

Additional observations from a re-analysis of the deposited data

Results flagged for a closer look

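A test of the difference itself marked 2 genes for the Acetalax response in BT549 minus MDAMB468, CKS2 with 1.18 and GAS2L3 with 1.04 on the log2 scale. Their Acetalax scores were -0.46 and -0.16 (CKS2) and -0.43 and -0.33 (GAS2L3) in MDAMB468 parental and CE cells, and 0.60 and 1.02 (CKS2) and 0.37 and 0.58 (GAS2L3) in those of BT549, so that every pair of a line went the same way.

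For the CE effect (CE minus parental) in BT549 minus MDAMB468, 22 genes were marked by a test added after the scores were seen. The log2 differences were -1.425 for PSRC1, -1.296 for GTSE1, -1.27 for PLK1, -1.204 for NEK2, -1.182 for ECT2, -1.178 for DLGAP5, -1.149 for AURKA and -1.149 for TUBB4B. They were -1.065 for CDC20, -1.04 for CKS2, -1.018 for CDCA2, -1.012 for CKAP2, -0.99 for RANGAP1, -0.954 for HMMR, -0.894 for BUB1, -0.86 for KIF2C and -0.853 for CDCA8. They were -0.847 for NUF2, -0.842 for HJURP, -0.792 for CDK1, -0.753 for CCNB1 and -0.574 for ANLN. Of the 54 genes, 12 were higher in CE cells in both MDAMB468 pairs and lower in both BT549 pairs by more than counting error (22.2%, against 5.08% of all genes with at least 5 CPM). PSRC1 was an example, with 0.19 (controls) and 0.81 (Acetalax) in MDAMB468 and -0.47 and -1.44 in BT549. Counting error is smaller for genes with more counts. Apart from NUSAP1 the 54 genes averaged 36.75 CPM (G2E3) to 601.1 CPM (TUBB4B), against a floor of 5 CPM for all genes. They can pass this limit with smaller differences, so that the shares are not a like comparison. The count of 12 rests on scaling by library totals and was not repeated with TMM scaling. With TMM the MDAMB468 control difference of CDC20, which is among the 12, went from 0.051 to -0.01.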

How the results depend on the processing

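Main counts are those of edgeR with TMM scaling and its filter, and counts are given for the 54 genes and then for the whole table. Acetalax over 4 backgrounds called 3 of the 54 and 984 genes, 5 and 1073 with RLE scaling, and 23 and 3585 with every gene of at least 1 count. It called 18 and 2684 with DESeq2, 0 and 0 with no replicate block, and 0 to 2 and 0 to 554 when a pair was left out. Acetalax in parental cells called 0 and 0, but 2 and 643 with every gene, 75 genes with DESeq2 and 0 to 182 genes when a pair was left out. Acetalax in CE cells called 0 and 0, but 6 and 1080 with every gene, 289 genes with DESeq2, and 0 to 1 and 0 to 207 when a pair was left out. The response in CE minus parental cells called 0 genes, 3 with every gene and 0 to 2 when a pair was left out. The response in BT549 minus MDAMB468 called 2 and 351, 1632 genes with every gene, 926 with DESeq2, and 0 to 5 and 100 to 1359 when a pair was left out. CE minus parental over 4 pairs called 0 and 23, 446 genes with every gene, 2 and 916 with DESeq2, 76 genes with no replicate block and 0 to 10 genes when a pair was left out. CE minus parental in controls called 0 genes, 45 with every gene and 46 with DESeq2. The CE effect in BT549 minus MDAMB468 called 22 and 2405, and 2 to 36 and 1294 to 2908 when a pair was left out. The replicate block here is the background, since groups share only replicate 1. No paired analysis by replicate number was possible because each condition has 1 library. Where a pair was left out of a test of 1 line or status, the lone pair was assumed to vary like the others. The cause of these changes was not tested. No call changed direction. The added test of the CE effect between lines and the left-out pairs of the tests of 1 line or status and of their differences were chosen after seeing the data. Over single genes and alternatives, a score moved by more than counting error in 175 cases, mostly with another scaling, and a call was lost in 47 cases. The medians of the 54 genes moved by less than the spread between pairs under every scaling. That spread holds the differences between backgrounds and lines, so that it is no measure of error. With TMM scaling the Acetalax median went from -0.501 to -0.297 in BT549-CE and from -0.181 to -0.096 in MDAMB468-CE cells. Scores centred on genes of like exon length were chosen after seeing the data. Their medians were -0.45, -0.17, 0.005 and -0.39 for Acetalax, so that the BT549 parental median changed sign. NUSAP1 had too few counts for a direction to be read.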
